A study of Mus musculus with 9 samples.

Results

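The genes described here are 10 members of the transforming growth factor beta (TGF-beta) system. They are the ligands *Tgfb1*, *Tgfb2* and *Tgfb3*, the activin A subunit *Inhba*, the receptors *Tgfbr1* and *Tgfbr2*, and the latent TGF-beta binding proteins *Ltbp1*, *Ltbp2*, *Ltbp3* and *Ltbp4*. They were taken by symbol from the 19481 genes of the deposited table, and all 10 were present and passed the filter on low counts. *Ltbp3* was chosen by its counts in the sh2 and sh3 tumors, between which it differed, so its values in each shRNA group are given as a description with no test.

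RNA-seq was performed on 9 subcutaneous tumors of KLN205 cells, a mouse lung squamous cell carcinoma line, grown in immunocompetent DBA/2 female mice, 6 to 8 weeks old at injection. The KLN205 cells carried a doxycycline-inducible shRNA, which was a scrambled sequence in 3 tumors (control), sh2 against *Tmprss11b* in 3 tumors and sh3 against *Tmprss11b* in 3 tumors. The study's text calls sh2 shRNA1 and sh3 shRNA2. All mice, controls included, received doxycycline in the drinking water once tumors had formed, and all tumors were taken on day 50. The shRNA was carried by the injected cells only, so the host's fibroblasts, vessels and immune cells kept their own *Tmprss11b*. Tumor size was not entered in any fit, and tumor size and shRNA group cannot be told apart in these data. The labels call the tumors of a group biological replicates, and the p-values measure the spread between them.

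TGF-beta is secreted as a latent complex in which the ligand stays bound to its own propeptide, and a latent TGF-beta binding protein links this complex to fibrillin and fibronectin fibers. Integrins, proteases and other factors release the ligand from the matrix. The free ligand joins the type II receptor, encoded by *Tgfbr2*, to the type I receptor, encoded by *Tgfbr1*, which then phosphorylates Smad2 and Smad3. In carcinomas this pathway is known for restraining epithelial growth early and for matrix deposition and immune suppression later. Activin A, a dimer of the product of *Inhba*, signals through related receptors to the same Smads.

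Total counts were 20653219 to 24047784 per tumor. The targeted gene, listed as *Tmprss11bnl*, was at 0.767, 2.11 and 1.72 CPM (counts scaled to the TMM-adjusted library size) in the control tumors, at 0.295, 0.0966 and 0.209 CPM in the sh2 tumors and at 0.462, 0.203 and 0.214 CPM in the sh3 tumors. All 6 shRNA tumors were below all 3 controls (exact permutation test, two-sided, p = 0.0119, the smallest that 6 tumors against 3 can give). These levels rest on 18 to 51 counts per control tumor and on 2 to 10 counts per shRNA tumor. Its log2 fold change for both shRNAs averaged was -2.63 ± 0.47 (SE), with a false discovery rate (FDR) of 0.982 over the 14725 genes tested by the edgeR quasi-likelihood test. The epithelial markers *Epcam*, *Cdh1*, *Krt8* and *Krt18* were at 235 to 1788 CPM in every tumor, while the squamous markers *Trp63* and *Sox2* were at 0.370 to 6.94 and at 9.57 to 32.9 CPM. The libraries were not alike in what else they held. Control replicate 1 had the highest summed level of skin markers (570 CPM against 16.8 to 189 in the other tumors). *Krt14* was most of this sum in every tumor, at 390 CPM in control replicate 1 and 12.3 to 184 CPM in the others. The study also names *KRT14* and *KRT10* among keratins enriched in squamous tumors with high *Tmprss11b*, so the sum need not come from skin alone. *Krt1*, *Krt5*, *Krt10* and *Lor* were also highest in control replicate 1, with *Krt10* at 45.7 CPM against 2.44 to 4.22 CPM. Control replicate 3 and sh3 replicate 1 had the highest summed levels of skeletal muscle markers (2649 and 874 CPM against 3.38 to 303). Sh3 replicate 1 and sh2 replicate 2 had the lowest summed macrophage markers (603 and 870 CPM against 1372 to 2740).

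Reads per gene length separated the members into abundant and scarce ones, as the plot of TPM (counts scaled by gene length and library) shows. The median over the 9 tumors was 218 TPM for *Ltbp3* and 216 TPM for *Tgfbr2*. It was 91.1 TPM for *Tgfb1*, 81.0 TPM for *Tgfbr1*, 52.5 TPM for *Tgfb3*, 48.7 TPM for *Ltbp1* and 36.0 TPM for *Inhba*. The scarce members were *Ltbp4* at 20.7 TPM, *Ltbp2* at 7.09 TPM and *Tgfb2* at 3.80 TPM. Among neighbours in this order, only the ranges of *Tgfbr2* (126 to 263 TPM) and *Tgfb1* (72.6 to 116 TPM) did not overlap. The ranges of the other neighbours overlapped over the 9 tumors. Within each tumor, however, *Inhba* was above *Ltbp4*, *Ltbp4* above *Ltbp2* and *Ltbp2* above *Tgfb2* in 9 of 9 tumors, and *Tgfbr1* was above *Tgfb3* in 8. The order of *Ltbp3* and *Tgfbr2*, of *Tgfb1* and *Tgfbr1* and of *Tgfb3* and *Ltbp1* held in 5 of 9 tumors each and that of *Ltbp1* and *Inhba* in 6, and *Tgfb3* and *Ltbp1* changed places when control replicate 1 was left out.

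**Figure D1:**
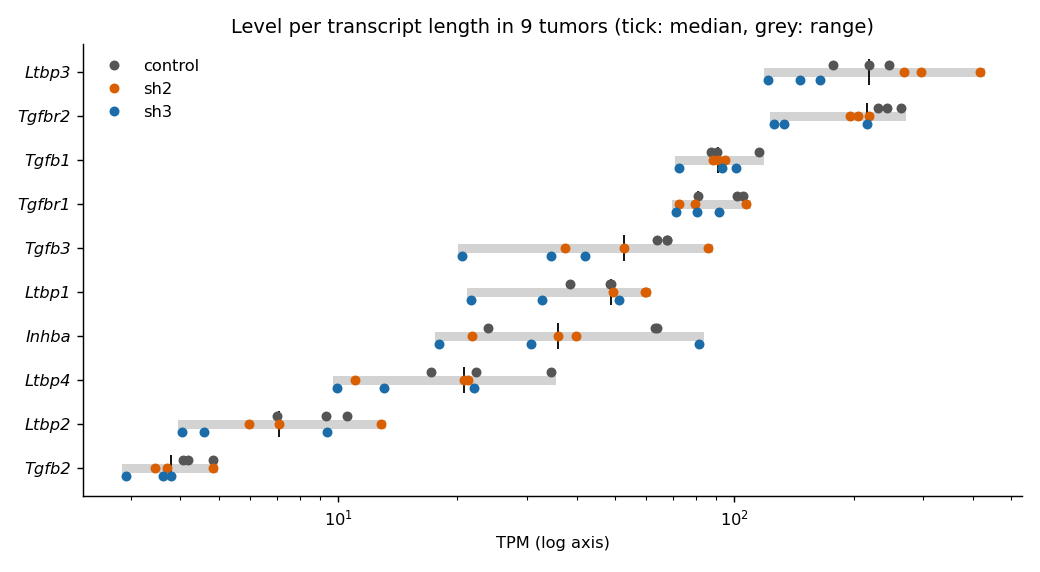
Level of the 10 genes per transcript length (x axis, TPM, log scale) in the 9 tumors, with 1 point per tumor colored by group, a tick at the median and a grey bar over the range. *Ltbp3* (median 218 TPM) and *Tgfbr2* (216 TPM) lie above the rest, and *Tgfb2* (3.80 TPM) lies lowest.

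No member passed an FDR of 0.05 in any comparison by the edgeR quasi-likelihood test, and neither did any of the 14725 genes tested (background 0.0% with sh2, with sh3, for both averaged and between the shRNAs). At an unadjusted p under 0.05 there were 518 genes with sh2 (3.52%), 976 with sh3 (6.63%), 602 for both averaged (4.09%) and 1057 between sh3 and sh2 (7.18%). Leaving out the untested values of *Ltbp3*, 1 member value was among them, that of *Tgfb3* with sh3. DESeq2's Wald test called 2, 41, 9 and 48 genes in the same order, and edgeR's likelihood ratio test called 0, 8, 8 and 14. None of these calls was a member, again leaving out the untested values of *Ltbp3*. The comparisons of sh2 and of sh3 with the control share the same 3 control tumors.

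**Figure D2:**
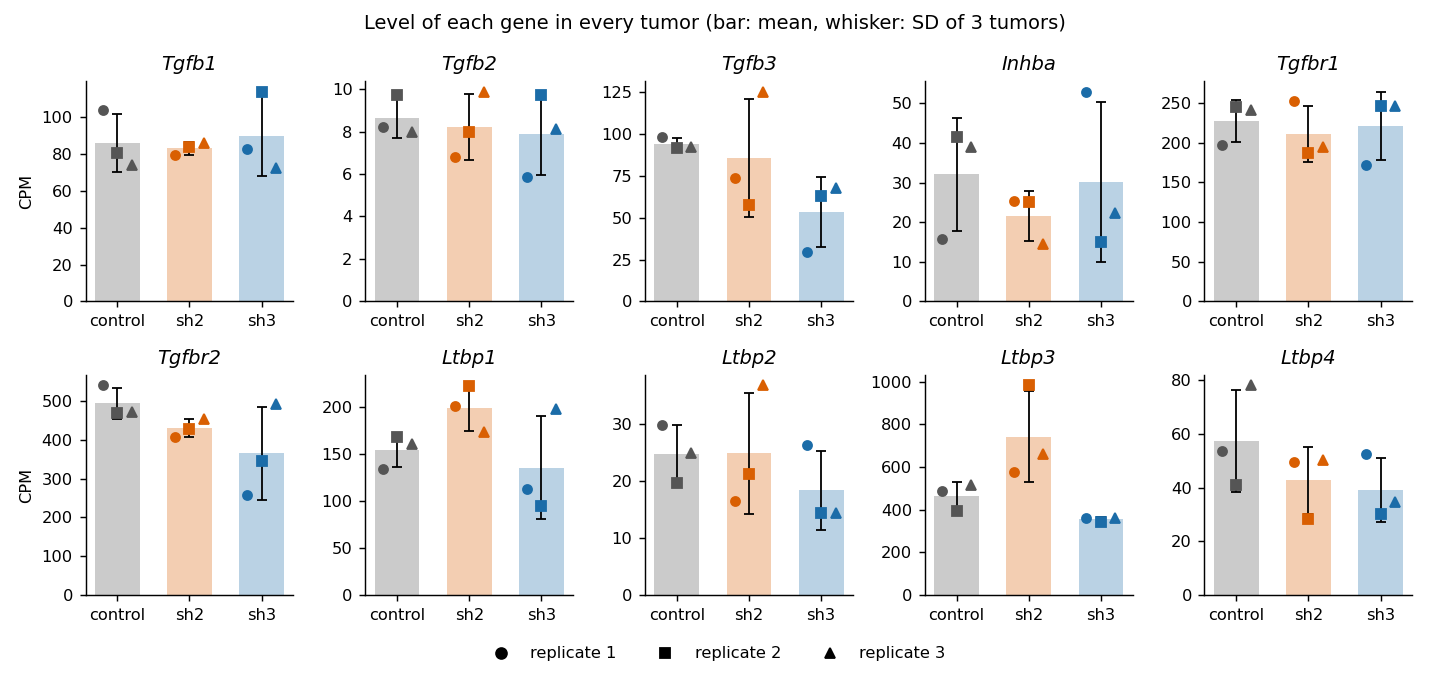
Level of each gene in CPM (y axis, from 0) in every tumor by group, with bars at the mean, whiskers at 1 SD of 3 tumors and a marker shape for each replicate number. *Ltbp3* is the gene whose 3 groups do not overlap, with sh2 tumors at 578 to 983 CPM, control tumors at 393 to 517 CPM and sh3 tumors at 341 to 364 CPM.

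Promoter sequence is shown for *Ltbp3*, *Ltbp1* and *Tgfbr2*, the members whose sh2 and control tumors did not overlap (11.4% of all genes tested did not), with *Ltbp3* among them by its choice. RefSeq's promoter table of GRCm38.p6 matched 9 of the 10 members with 13 windows, and *Tgfb3* was not matched. The 250 bases before the first listed start are printed 5′ to 3′ on the gene's strand, with capitals where CAGAC, the Smad-binding element, matched on either strand. The windows are chr19:5740650-5740899 for *Ltbp3*, chr17:75005279-75005528 for *Ltbp1* and chr9:116175364-116175613 (minus strand) for *Tgfbr2*. The start used for *Ltbp1* lies inside its gene model.
*Ltbp3*: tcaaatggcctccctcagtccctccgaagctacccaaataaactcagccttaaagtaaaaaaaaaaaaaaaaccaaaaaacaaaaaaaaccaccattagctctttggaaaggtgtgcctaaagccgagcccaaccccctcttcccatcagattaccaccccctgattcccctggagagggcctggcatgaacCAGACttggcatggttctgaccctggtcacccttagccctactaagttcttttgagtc
*Ltbp1*: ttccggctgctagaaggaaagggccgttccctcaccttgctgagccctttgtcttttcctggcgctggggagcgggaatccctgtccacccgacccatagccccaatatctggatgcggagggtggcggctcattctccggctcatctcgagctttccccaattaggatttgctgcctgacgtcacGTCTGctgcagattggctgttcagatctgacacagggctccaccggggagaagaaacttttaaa
*Tgfbr2*: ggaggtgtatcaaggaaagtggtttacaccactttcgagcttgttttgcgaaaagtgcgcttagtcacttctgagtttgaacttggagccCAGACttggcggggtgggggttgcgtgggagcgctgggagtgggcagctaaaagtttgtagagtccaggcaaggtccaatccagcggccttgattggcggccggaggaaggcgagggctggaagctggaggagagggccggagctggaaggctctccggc
CAGAC matched in 7 of the 13 member windows and in 42.2% of all 32851 promoters of the same length. Each of the printed windows held 1 match, at 58 bases before the start in *Ltbp3*, at 64 in *Ltbp1* and at 160 in *Tgfbr2*. TGANTCA, the AP-1 site, matched in 0 of 13 member windows and in 6.75% of all promoters. GGGCGG, the GC box, matched in 6 of 13 windows (32.7% of all), with 5 matches in *Tgfb1* and none in the printed windows. TATAAA, the TATA box, matched in those of *Tgfb2* and *Inhba* (12.4% of all). These motifs were searched on both strands.

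Most of the latent TGF-beta binding proteins help to secrete and anchor latent TGF-beta. *Ltbp3*, which binds latent TGF-beta and lies at chr19:5740900-5758536 (GRCm38.p6, plus strand), was at 486, 393 and 517 CPM in the controls. It was at 578, 983 and 663 CPM in the sh2 tumors and at 364, 341 and 362 CPM in the sh3 tumors. Every sh2 tumor was above every control tumor and every sh3 tumor was below, an order that 16 of the 14725 genes tested shared (0.109%). This order contains the difference for which the gene was chosen, so nothing is read from it. The group means were 465 ± 64.8 CPM in control, 741 ± 214 in sh2 and 356 ± 12.7 in sh3 tumors (SD, n = 3). The fitted log2 fold change was 0.67 with sh2, -0.39 with sh3 and -1.06 between sh3 and sh2. The value with sh2 was 0.42 without sh2 replicate 2, the tumor with the highest level, and that tumor also had the highest summed epithelial markers (5107 CPM against 2314 to 3833 in the others). The part of these markers in the level of *Ltbp3* was not tested.

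The average of both shRNAs compared with the control does not use the difference between them, and in it the log2 fold change of *Ltbp3* was 0.14 ± 0.18 (SE), with a 95% interval of -0.26 to 0.55 and an FDR of 0.982. The strand setting of the counting is not given in the sources used here.

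*Ltbp1*, the founding member that joins latent TGF-beta to the matrix, lies at chr17:75005480-75392512 (plus strand). It was at 134, 169 and 160 CPM in the controls and at 201, 222 and 174 CPM in the sh2 tumors, so the groups did not overlap. In the sh3 tumors it was at 113, 95.2 and 198 CPM, with 2 tumors below and 1 above all controls. The log2 fold change was 0.37 ± 0.26 with sh2 (SE, FDR 0.999) and -0.19 ± 0.26 with sh3 (FDR 0.904). Between sh3 and sh2 it was -0.55 ± 0.26 with a 95% interval of -1.13 to 0.02 and an FDR of 0.673.

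*Ltbp2*, which binds fibrillin but not latent TGF-beta, lies at chr12:84783212-84876558 (minus strand) and was at 29.8, 19.7 and 24.9 CPM in control, at 16.4, 21.3 and 36.8 CPM in sh2 and at 26.4, 14.4 and 14.4 CPM in sh3 tumors. The groups overlapped in all comparisons. The log2 fold change was 0.00 ± 0.34 with sh2 (SE, 95% interval -0.78 to 0.78) and -0.43 ± 0.35 with sh3 (-1.21 to 0.35), with FDRs of 1.00 and 0.834 by edgeR. *Ltbp4*, which takes part in elastic fiber assembly and binds latent TGF-beta weakly, lies at chr7:27305140-27339720 (minus strand). It was at 53.4, 40.8 and 78.0 CPM in control, at 49.5, 28.2 and 50.3 CPM in sh2 and at 52.4, 30.1 and 34.7 CPM in sh3 tumors. In the mean of both shRNAs *Ltbp4* had the most negative value of the members, with a log2 fold change of -0.49 ± 0.27 (SE, 95% interval -1.10 to 0.12, FDR 0.982). It was -0.21 without control replicate 3, and 3 of the 6 shRNA tumors were below all controls (exact permutation test, two-sided, p = 0.155).

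Added per length, the 4 binding proteins came to 293 ± 44.0 TPM in control, 409 ± 75.0 TPM in sh2 and 200 ± 37.9 TPM in sh3 tumors (SD, n = 3). *Ltbp3* made up 73.0 ± 2.25% of this sum in control, 79.3 ± 4.45% in sh2 and 72.5 ± 4.64% in sh3 tumors. The order of the groups in the full sum thus contains the difference for which *Ltbp3* was chosen, and nothing is read from it. Without *Ltbp3* the sum was 78.9 ± 11.8 TPM in control, 82.5 ± 4.27 TPM in sh2 and 56.1 ± 17.9 TPM in sh3 tumors. The ranges of this smaller sum overlapped between control (71.3 to 92.4 TPM) and sh2 (78.1 to 86.6 TPM), and in TPM the sh3 tumors (35.6 to 68.7 TPM) lay below both. TPM and CPM do not rank the tumors alike. *Tgfb1* was higher in sh3 replicate 2 than in control replicate 1 in CPM (114 and 104) but lower in TPM (101 and 116). The separation of the sh3 tumors was not examined in CPM, so nothing is read from it.

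**Figure D3:**
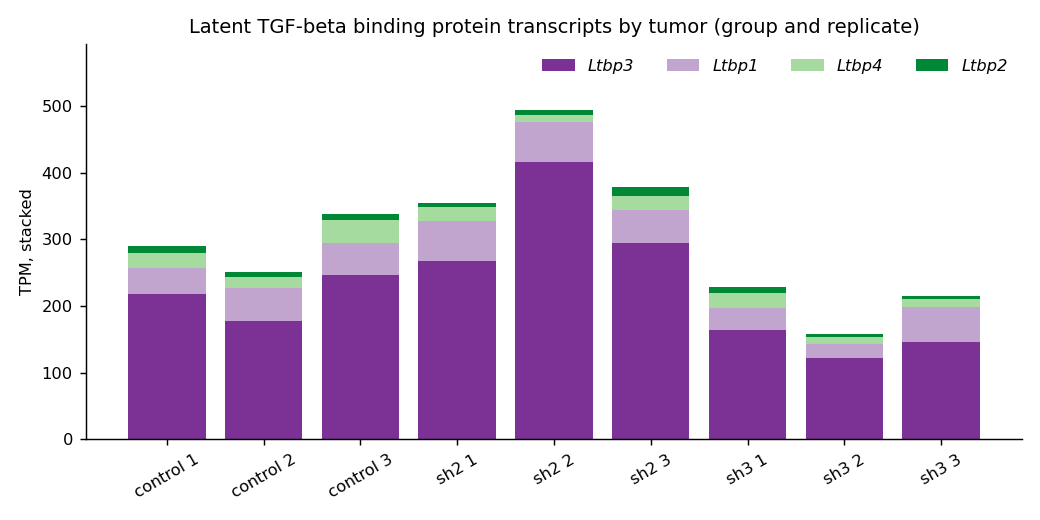
Summed TPM of the 4 latent TGF-beta binding proteins in each tumor (y axis, from 0), stacked by gene, with tumors named by group and replicate. The sums run from 251 to 338 TPM in control, from 354 to 494 TPM in sh2 and from 157 to 229 TPM in sh3 tumors. *Ltbp3* is the largest part of each, so the order of the groups contains the difference for which it was chosen.

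The ligands differed among themselves. *Tgfb1*, the main ligand of immune cells and platelets, lies at chr7:25687002-25705077 (plus strand) and was at 104, 80.5 and 73.9 CPM in control, at 79.4, 84.1 and 86.0 CPM in sh2 and at 82.9, 114 and 72.3 CPM in sh3 tumors. The groups lay within each other, with a log2 fold change of 0.00 ± 0.17 for both shRNAs averaged (SE, 95% interval -0.37 to 0.38, FDR 1.00). *Tgfb2*, a ligand that needs a co-receptor for high-affinity binding to *Tgfbr2*, lies at chr1:186622787-186709697 (minus strand). It was at 7.98 to 9.73 CPM in control, 6.78 to 9.89 CPM in sh2 and 5.87 to 9.70 CPM in sh3 tumors, and its log2 fold change for both averaged was -0.10 ± 0.22 (SE, FDR 0.987).

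*Tgfb3*, a ligand known for its part in palate fusion, lies at chr12:86056743-86079041 (minus strand). It was at 98.1, 91.6 and 92.6 CPM in the controls and at 29.5, 63.1 and 67.6 CPM in the sh3 tumors, all of which were below all controls. In the sh2 tumors it was at 74.0, 57.7 and 126 CPM, with 2 tumors below and 1 above the controls. The log2 fold change was -0.82 ± 0.34 with sh3 (SE, 95% interval -1.60 to -0.04, unadjusted p = 0.0417 and FDR 0.753 by edgeR) and -0.13 ± 0.34 with sh2 (FDR 0.999). Without sh3 replicate 1, the lowest tumor, the value with sh3 was -0.52. The difference between sh3 and sh2 was -0.68 ± 0.34 (95% interval -1.46 to 0.10, FDR 0.675), and it was -0.32 without sh2 replicate 3 and -0.39 without sh3 replicate 1. Of the 6 shRNA tumors, 5 were below all controls (exact permutation test, two-sided, p = 0.226).

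Per length, *Tgfb1* made up 57.8 ± 3.53% of the 3 TGF-beta ligands in control, 60.4 ± 8.61% in sh2 and 71.3 ± 9.29% in sh3 tumors (SD, n = 3). The share of *Tgfb3* was 39.6 ± 3.23%, 37.0 ± 8.70% and 26.0 ± 9.01%. Its highest share among the sh3 tumors (35.5%) was below its lowest among the control tumors (36.1%). *Tgfb2* stayed at 2.17 to 3.06% in all tumors.

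*Inhba*, at chr13:16004256-16031609 (plus strand), varied most within the control and the sh3 group. It was at 15.7, 41.5 and 39.0 CPM in control, at 25.3, 25.0 and 14.4 CPM in sh2 and at 53.0, 14.9 and 22.4 CPM in sh3 tumors. The SD came to 44.3% of the mean in control, 28.8% in sh2 and 67.1% in sh3 tumors, and the intervals of its log2 fold change were the widest of the members (-1.71 to 0.57 with sh2 and -1.23 to 1.04 with sh3). The log2 fold change with sh3 was -0.78 without sh3 replicate 1 and 0.23 without sh3 replicate 2.

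The receptors were abundant in every tumor. *Tgfbr2*, the type II receptor at chr9:116087695-116175363 (minus strand), was at 540, 470 and 471 CPM in the controls and at 408, 428 and 454 CPM in the sh2 tumors, so the groups did not overlap. It was at 257, 345 and 493 CPM in the sh3 tumors. Of the 6 shRNA tumors, 5 were below all controls (exact permutation test, two-sided, p = 0.131). The log2 fold change was -0.20 ± 0.22 with sh2 (SE, FDR 0.999), -0.44 ± 0.22 with sh3 (FDR 0.760) and -0.32 ± 0.19 for both averaged (95% interval -0.74 to 0.10, FDR 0.982). Without sh3 replicate 1 the value with sh3 was -0.24, and without sh3 replicate 3 it was -0.74. *Tgfbr1*, the type I receptor at chr4:47353222-47414926 (plus strand), was at 197 to 245 CPM in control, 187 to 252 CPM in sh2 and 172 to 247 CPM in sh3 tumors, with a log2 fold change of -0.07 ± 0.16 for both averaged (SE, FDR 0.987). The ratio of *Tgfbr2* to *Tgfbr1* in TPM was 2.61 ± 0.55 in control, 2.46 ± 0.47 in sh2 and 1.93 ± 0.38 in sh3 tumors (SD, n = 3), and the ranges overlapped.

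Counted over all 10, the groups did not overlap for 3 members with sh2 (*Ltbp1* and *Ltbp3* higher, *Tgfbr2* lower), against 11.4% of all genes tested. With sh3 they did not overlap for 2 members (*Tgfb3* and *Ltbp3*, both lower), against 12.2%, and between sh3 and sh2 for *Ltbp3* alone, against 10.1%. In the comparison of all 6 shRNA tumors with the 3 controls they overlapped for every member, against 2.17% of genes that did not overlap. *Ltbp3* is in the first 3 of these counts by its choice. Without sh3 replicate 1 the count with sh3 was 5 members, but the share of all genes was then 35.0%. Fold changes were below 0 for 7 members with sh2 (48.2% of all genes), 9 with sh3 (45.1%), 7 for both averaged (45.0%) and 7 between sh3 and sh2 (45.1%). The median log2 fold change of the members was -0.09 with sh2 and -0.29 with sh3, where that of all genes was 0.01 and 0.03. *Ltbp3* is among the members below 0 with sh3 and between sh3 and sh2, and its values enter both medians. These counts and medians thus contain in part the difference for which it was chosen.

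**Figure D4:**
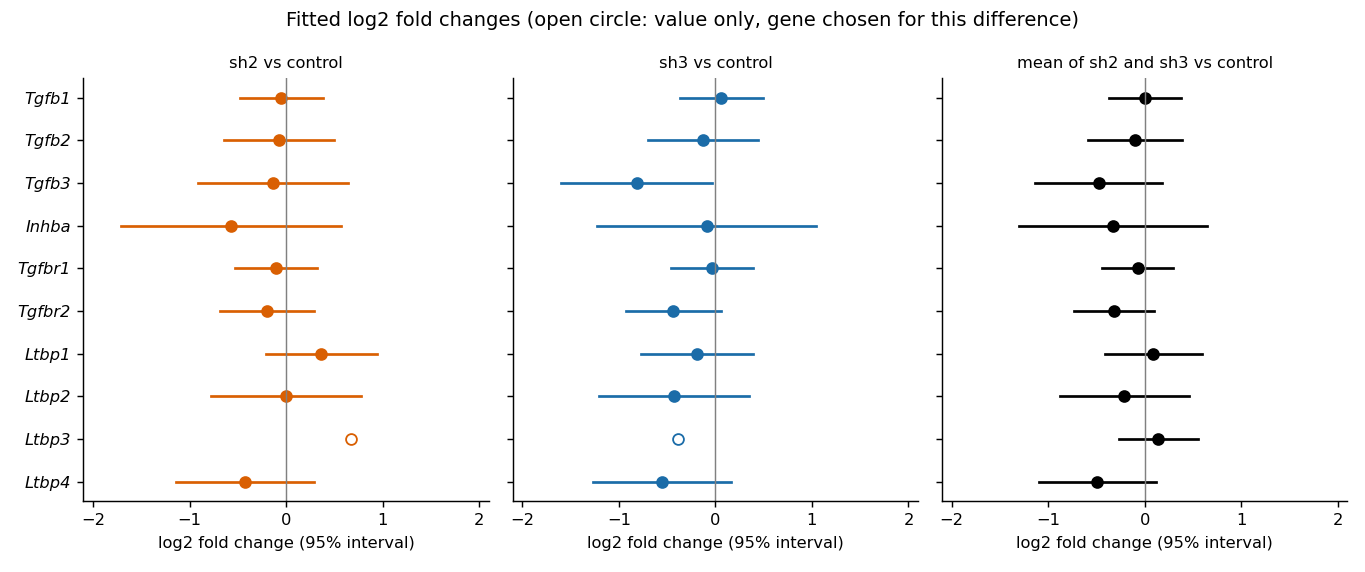
Fitted log2 fold change of each gene (x axis) with sh2, with sh3 and for both averaged against the control, with 95% intervals as lines. The open circles of *Ltbp3* are values without a test (0.67 with sh2 and -0.39 with sh3), and the interval of *Tgfb3* with sh3 (-1.60 to -0.04) is the one that leaves out 0 before adjustment.

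Other genes of the pathway were read from lists of 68 genes by role, of which 67 were in the table and 63 were tested. None passed an FDR of 0.05 in the edgeR quasi-likelihood test in any comparison. At an unadjusted p under 0.05 there were 2 of the 63 with sh2 (3.52% of all genes tested), 9 with sh3 (6.63%), 9 for both averaged (4.09%) and 5 between sh3 and sh2 (7.18%). DESeq2's Wald test called 2 with sh3, *Col1a1* (FDR 0.0140) and *Col1a2* (FDR 0.00604), and the edgeR likelihood ratio test called *Col1a2* with sh3 (FDR 0.0400). The 63 genes had a median log2 fold change of -0.04 with sh2 and -0.13 with sh3.

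The matrix partners of latent TGF-beta had the lowest list median with sh3. All 8 of them were below 0 with sh3 (45.1% of all genes tested), with a median log2 fold change of -0.80. With sh3, 4 were at an unadjusted p under 0.05 by edgeR (6.63% of all genes tested). With sh2, 7 of 8 were below 0 (48.2%), with a median of -0.28. The median with sh3 lay between -0.97 and -0.65 when any 1 tumor was left out. That with sh2 was -0.17 without control replicate 1 or sh2 replicate 1, -0.12 without sh2 replicate 2 and -0.46 without sh2 replicate 3. *Fbn1*, the fibrillin to which binding proteins attach, was at 155, 152 and 194 CPM in control, at 149, 88.2 and 150 CPM in sh2 and at 101, 109 and 86.8 CPM in sh3 tumors. All sh3 tumors were below all controls, with a log2 fold change of -0.76 ± 0.21 (SE, FDR 0.753 by edgeR). *Eln*, which encodes elastin, was at 40.5, 20.4 and 39.9 CPM in control, at 14.2, 23.9 and 40.3 CPM in sh2 and at 14.4, 8.08 and 2.40 CPM in sh3 tumors, and its log2 fold change between sh3 and sh2 was -1.66 ± 0.61 (SE, FDR 0.673).

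Among 15 known target genes of the pathway, 11 were below 0 with sh3 (45.1% of all genes tested) and 8 with sh2 (48.2%). *Col1a2* and *Col1a1*, the chains of type I collagen, had the lowest unadjusted p of all listed genes with sh3, for both averaged and between the shRNAs. *Col1a2* was at 1324 ± 333 CPM in control, 1076 ± 265 CPM in sh2 and 548 ± 144 CPM in sh3 tumors (SD, n = 3), with a log2 fold change with sh3 of -1.27 ± 0.27 (SE, FDR 0.753 by edgeR's quasi-likelihood test). *Col1a1* was at 1299 ± 495, 997 ± 230 and 545 ± 115 CPM, with a log2 fold change with sh3 of -1.25 ± 0.29 (SE, FDR 0.753). With sh2 the lowest unadjusted p belonged to *Cdkn1a*, a cell cycle inhibitor (log2 fold change 0.63 ± 0.23, SE), *Gdf15*, a stress-induced ligand of the family (0.91 ± 0.37), and *Nog*, a BMP antagonist (-1.39 ± 0.67), each with an FDR of 0.999 by edgeR. The sh2 and control tumors overlapped for each of them. *Gdf15* was at 23.5, 63.1 and 24.7 CPM in sh2 and at 24.4, 16.0 and 18.9 CPM in control tumors. *Nog* was scarce, at 0.590, 0.242 and 0.167 CPM in sh2 and at 0.937, 0.331 and 1.39 CPM in control tumors. Of the 11 Smads and Smad regulators, 2 were below 0 with sh2 (48.2% of all genes tested) and 4 with sh3 (45.1%), with medians of 0.11 and 0.07.

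**Figure D5:**
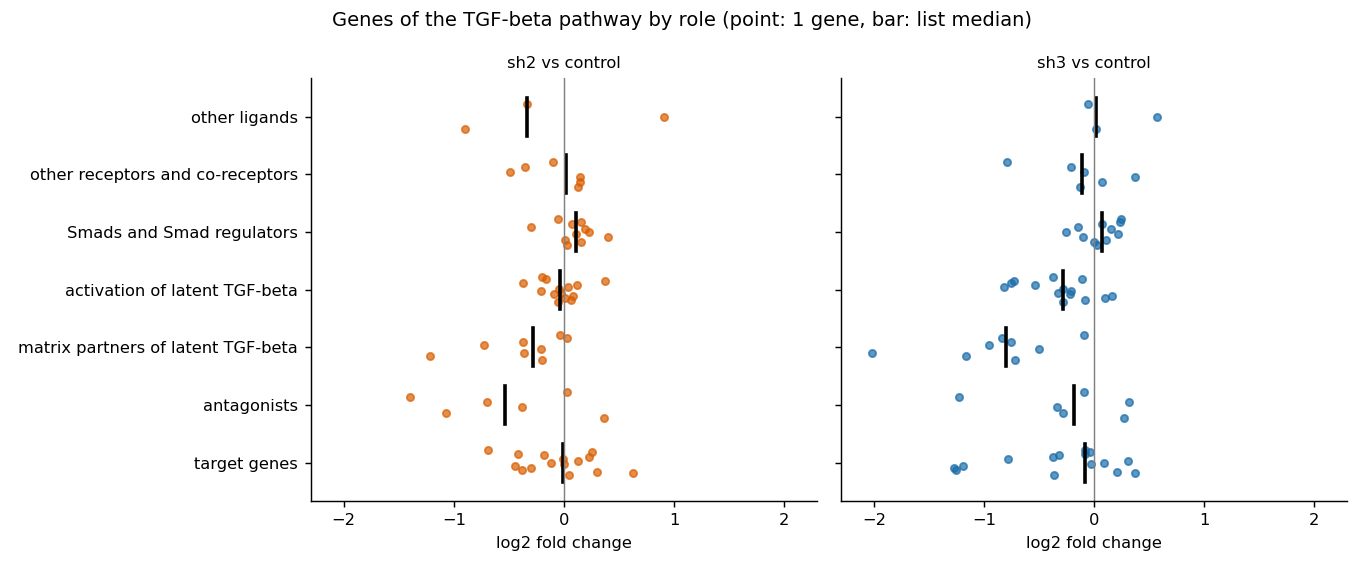
Log2 fold change (x axis) of each gene of the pathway lists (points) with sh2 and with sh3 against the control, by role, with a bar at the list median. The matrix partners lie furthest to the left with sh3 (median -0.80), and the Smads and their regulators lie close to 0.

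Fibroblasts are a main source of these matrix genes. The summed level of 6 fibroblast markers was 362 to 512 CPM in control, 228 to 373 CPM in sh2 and 237 to 379 CPM in sh3 tumors. The lowest single value among them was that of *Lum*, which ranged from 2.05 to 48.8 CPM. Summed endothelial markers were 204 to 242, 185 to 216 and 138 to 215 CPM. In bulk RNA, fewer cells of a type and less RNA per cell cannot be told apart. The part of fibroblast and vessel content in the levels of *Tgfb3*, *Tgfbr2*, *Ltbp4* and the matrix genes was not tested. Summed markers of platelets and megakaryocytes, cells rich in *Tgfb1*, were 11.7 to 16.4 CPM in control, 21.3 to 28.1 CPM in sh2 and 7.79 to 22.3 CPM in sh3 tumors. The genes of this list did not move together with sh2. *Pf4* was at 5.30 to 9.80 CPM in control and 9.76 to 21.7 CPM in sh2 tumors, and *Ppbp* at 0.952 to 1.75 and 2.63 to 8.55 CPM. *Itga2b* went the other way, at 4.81 to 5.42 CPM in control and 3.00 to 3.84 CPM in sh2 tumors. *Gp9* was below 3 counts in every tumor.

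The genes whose log2 CPM followed each member most closely over the 9 tumors were found by Pearson's r as a description, with tumors sharing group and library. Each was picked as the highest among the 14725 genes tested, so nothing is read from the height of r. For *Ltbp3* they were *Hlcs* (r = 0.98, Spearman's rho = 0.97), *P2ry2* (0.95 and 0.90) and *Agfg2* (0.95 and 0.95). These values contain the difference for which *Ltbp3* was chosen. With the group means removed, r was 0.93, 0.89 and 0.88 in the same order. For *Tgfb3* it was *Exph5* (0.98 and 0.92) and for *Tgfbr2* it was *Tmem109* (0.98 and 0.93). For *Ltbp1* it was *2700049A03Rik* (0.96 and 0.92) and for *Ltbp4* it was *Ssc5d* (0.96 and 1.00). For *Tgfb1* it was *Brsk1* (0.93 and 0.87), for *Tgfb2* it was *Pex11g* (0.94 and 0.93), for *Inhba* it was *Atr* (0.97 and 0.92) and for *Tgfbr1* it was *Ifih1* (0.97 and 0.75).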

How the data were processed

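RNA of 9 tumors was analysed, 3 per group, with groups and replicate numbers taken from the labels. The authors ran fastqc v0.11.2, STAR v2.5.3a and featureCounts, with mm10 given as the build in the submitters' processing notes, and deposited raw counts for 19481 genes. The annotation and the strand setting are not given in the sources used here. The CPM signal deposited by the authors is scaled by TMM factors, and it differed by at most 0.431% from CPM recomputed from the counts, which is the scale of all CPM values above. The TPM deposited by the authors was used to compare levels between genes and for sums, shares and ratios of genes, which are also given by group. A further 10 columns hold the authors' own comparisons and were not used.

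Counts were fitted in R 4.3.3 with edgeR 4.0.16 over all 9 tumors as a 3-group model on TMM-scaled libraries, using robust quasi-likelihood F tests on the 14725 genes that filterByExpr kept. Contrasts compared sh2, sh3 and their average with the control, and sh3 with sh2. The FDR is Benjamini-Hochberg's, over all genes tested, and its threshold was 0.05. SEs and 95% intervals come from the same fit. Members other than *Ltbp3* were also compared by exact permutation of log2 CPM (prior count 2) over 84 assignments of 6 tumors against 3, and 3 tumors against 3 cannot go below p = 0.1. The code was tested on simulated counts. Total counts of 20653219 to 24047784 put 3 counts at 0.125 to 0.145 CPM, a floor that covers counting error only. Coordinates are from RefSeq's GRCm38.p6 table, which is the build of mm10.

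The members and lists were chosen with earlier results of these data known. The text names every member, *Tmprss11b*, the 3 listed pathway genes with the lowest p in each comparison and the gene most like each member (3 for *Ltbp3*). The gene most like *Ltbp2* is not reported here.

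Alternatives tried were edgeR scaled by DESeq2's size factors, the Wald test of DESeq2 1.42.0, edgeR's likelihood ratio test with current and with earlier dispersion functions, other filters on low counts, only the groups compared, a replicate block and each tumor left out. The counts of members without overlap and the median of the matrix partners without single tumors were added after the data were seen.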

Additional observations from a re-analysis of the deposited data

Results flagged for a closer look

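*Ltbp3* lay on opposite sides of the control tumors in the 2 shRNA groups, an order that 16 of the 14725 genes tested shared (0.109%). All sh2 tumors (578 to 983 CPM) were above all control tumors, with a log2 fold change of 0.67, and all sh3 tumors (341 to 364 CPM) were below them, with a log2 fold change of -0.39. The difference was not tested and nothing is read from it, because the gene was picked for it.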

How the results depend on the processing

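The count of genes past an FDR of 0.05 was 0 in all 4 comparisons, and it stayed at 0 with DESeq2's size factors within edgeR, with other filters, with only the groups compared and without any 1 tumor (range 0 to 0). It rose with other tests. DESeq2's Wald test called 2 genes with sh2, 41 with sh3, 9 for both averaged and 48 between sh3 and sh2. The edgeR likelihood ratio test called 8 with sh3, 8 for both averaged and 14 between sh3 and sh2. With earlier dispersion functions and no filter it called 15, 10, 76 and 27. The cause was not tested. Members passed in none of these alternatives, leaving out the untested values of *Ltbp3*. Of the other pathway genes, *Col1a1* and *Col1a2* passed in some of them, and *Mstn* passed only in the likelihood ratio test with earlier dispersion functions and no filter, not without a filter alone. Fitting only the groups compared gives no separate value for both averaged.

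Same-numbered tumors did not deviate together (mean correlation -0.10 over 9 pairs, from -0.24 to 0.09, against 0.05 over 18 other pairs, from -0.30 to 0.39). No pairing by number was seen in expression, and whether tumors were paired in handling cannot be told from these values. With a replicate block the count of calls stayed at 0 in every comparison, and the log2 fold change of *Tgfb3* with sh3 was -0.89 (FDR 0.979).

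Leaving out 1 tumor turned the direction of small member changes. With sh2 the log2 fold change then lay between -0.15 and 0.11 for *Tgfb1*, -0.22 and 0.043 for *Tgfb2*, -0.51 and 0.087 for *Tgfb3*, and -0.39 and 0.23 for *Ltbp2*. With sh3 it lay between -0.15 and 0.20 for *Tgfb1*, -0.30 and 0.045 for *Tgfb2*, -0.78 and 0.23 for *Inhba*, -0.15 and 0.12 for *Tgfbr1*, and -0.59 and 0.011 for *Ltbp1*. For both averaged it lay between -0.10 and 0.15 for *Tgfb1*, -0.17 and 0.0043 for *Tgfbr1*, and -0.11 and 0.19 for *Ltbp1*. Between sh3 and sh2 it lay between -0.10 and 0.22 for *Tgfb1*, -0.23 and 0.12 for *Tgfb2*, -0.21 and 0.80 for *Inhba*, -0.044 and 0.22 for *Tgfbr1*, and -0.40 and 0.029 for *Ltbp4*. With at least 10 counts required in every tumor, *Ltbp2* with sh2 was -0.0059 and *Tgfb1* for both averaged was -0.0027. Without sh2 replicate 2 or without sh3 replicate 1, the groups of 2 members did not overlap between sh3 and sh2, beside 17.7% and 35.1% of all genes.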
